A study of Mus musculus with 6 samples.

Results

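Low-methylated sparse regions are short stretches of the mouse genome with few CpGs that were only partly methylated in untreated colon epithelium. They were chosen by a rule with 5 conditions. A region had to lie on an autosome, have a value in all 6 samples, and hold fewer than 4 CpGs per 100 bases. It also had to have no CpG-dense region (at least 10 CpGs and at least 8 CpGs per 100 bases) within 2000 bases, and a mean methylation level of 10 to 30% over the 2 control samples. The methylation level is the share of methylated calls among all calls of a region, in percent. The rule found 10499 regions among the 209687 deposited, or 13.8% of the 75922 sparse regions away from dense ones that had a value in every sample. Another 7568 sparse regions lacked a value in at least 1 sample. Of those, 271 had a control mean inside the window and are not among the 10499.

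The samples were colon epithelial cells of C57BL/6 mice, an inbred laboratory strain, aged 18 weeks, with 2 samples in each of 3 groups. The groups were untreated mice (control), mice that received the colon carcinogen azoxymethane (AOM) together with dextran sulfate sodium (DSS), which inflames the colon, and mice that had curcumin, a polyphenol of turmeric, on top of AOM and DSS. The sources used here state neither doses nor schedules. They do not say either whether each sample was a mouse of its own. The p-values thus measure the spread between these samples, which may be technical. Fisher's exact test, run on calls summed per group, is the exception and does not measure that spread. Per the labels' protocol, the proximal segment and tumors were cut away and the mucosa was scraped, so the values describe the scraped epithelium that was left and any other cells it still held. Purity could not be checked, because regions were not tied to genes.

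Most CpGs outside CpG islands are methylated in adult mouse tissue. Stretches with few CpGs and low but not absent methylation often lie at distal regulatory elements, where bound transcription factors keep the DNA partly free of methylation. Such stretches can differ between cell types, so a mean level in bulk DNA also reflects which cells are present. No chromatin mark, factor binding or gene expression was measured here, so whether a given region is an enhancer is not known, and the regions are named by their rule.

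The regions were small and well separated. They held 3 to 19 CpGs with a median of 6, a median length of 214 bases and a median density of 2.96 CpGs per 100 bases. The nearest CpG-dense region lay a median of 49827 bases away. Each autosome held between 318 (chromosome 18) and 859 (chromosome 2) of them, which was 12.9 to 15.2% of its sparse regions. In 9036 cases (86.1% of the regions) no other such region lay within 2000 bases. The remaining 1463 formed 693 runs of 2 to 6.

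Depth in these regions was close to that of the whole capture. The median region had between 93 calls (control replicate 1) and 115 calls (AOM/DSS replicate 0). At the median of 103 calls, 21 methylated calls gave a level of 20.4% with a 95% Wilson interval of 13.7 to 29.2%. That interval covers counting error only and is too narrow where several calls come from 1 read. At that depth a level in a single sample is therefore known only to within several points. In these regions replicates of a group differed on average by 6.67 points in control, 5.83 in AOM/DSS and 5.77 with curcumin.

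The surroundings of the regions were of several kinds, and a dip inside methylated DNA was only one of them. At least 1 other captured region lay within 2000 bases in 7676 cases (73.1%). In 7294 of these a neighbour had a value in all samples. The mean control level of the neighbours had a median of 31.1%, with quartiles at 10.2 and 56.6%. In 2301 regions (21.9%) at least 1 neighbour exceeded 50% in control and none was under 10%. In 2428 regions (23.1%) a neighbour was under 10% and none exceeded 50%. In 1396 regions (13.3%) both kinds were present, so that the region lay between, or beside, unmethylated and methylated DNA. A neighbour with 10 or more CpGs and a control level under 10% stood within 2000 bases of 2271 regions (21.6%). These regions border CpG-richer unmethylated DNA that is not dense enough to be excluded by the rule. The set thus holds regions in methylated surroundings and regions beside unmethylated DNA in similar numbers.

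**Figure D1:**
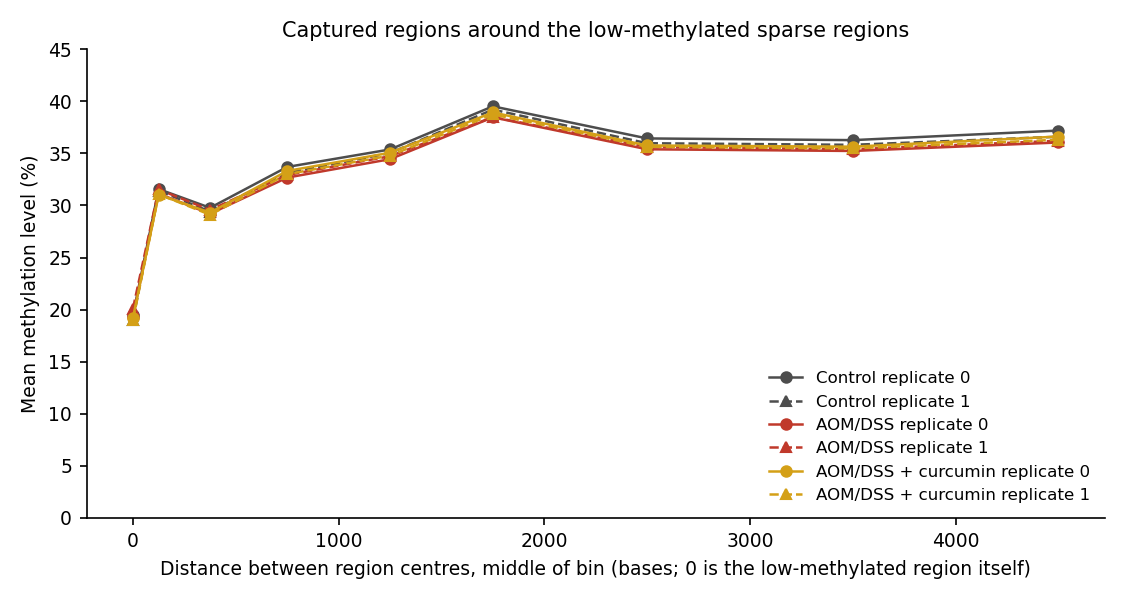
Mean methylation level (%) of captured regions by distance between their centres and those of the 10499 low-methylated sparse regions (bases, at the middle of each bin), with 1 line per sample and the regions themselves at 0. In control the level is 19.2% at the regions, 31.5% within 250 bases (507 neighbours), 29.6% at 250 to 500 bases, 39.4% at 1500 to 2000 bases (2766 neighbours) and 36.2% at 2000 to 3000 bases, and the 6 lines run close together.

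The mean level of captured neighbours was higher farther out, though not at every step. In control it was 31.5% for centres up to 250 bases apart, 29.6% for centres 250 to 500 bases apart (5176 neighbours), 33.4% at 500 to 1000 bases and 39.4% at 1500 to 2000 bases. Beyond 2000 bases it was 36.2%, and at 4000 to 5000 bases 36.9%. Dense regions are absent within 2000 bases by the rule, so part of this shape was set by the choice. AOM/DSS minus control was -0.166 points within 250 bases and -0.889 points at 1500 to 2000 bases. Curcumin minus AOM/DSS was -0.281 and -0.173 points in the 2 nearest bins and 0.192 to 0.364 points in the bins from 500 bases on.

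The effect of adding curcumin to AOM/DSS is the one comparison here that uses no sample that chose the regions. The low-methylated sparse regions stood slightly lower with curcumin. The mean level was 19.3% in AOM/DSS replicate 0 and 20.1% in replicate 1, against 19.2% and 18.99% in the curcumin replicates. Both curcumin samples lay below both AOM/DSS samples, and AOM/DSS replicate 1 stood apart above the other 5 samples. The group means were 19.7% ± 0.544 in AOM/DSS and 19.1% ± 0.155 with curcumin (SD, n = 2), a difference of -0.597 points. The two-sided exact permutation test gave p = 0.333, the smallest value that 2 samples against 2 allow. Without AOM/DSS replicate 1 the difference was -0.212 points and without replicate 0 it was -0.981 points, so its size rests on these single samples.

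AOM/DSS replicate 1 was the highest of the 6 samples on 19 of 19 autosomes. By group mean, curcumin minus AOM/DSS was negative on 19 of 19 autosomes, from -1.26 to -0.118 points, but both curcumin samples lay below both AOM/DSS samples on only 8 of them. In 12271 dense autosomal regions, which were chosen without their level, the median was 1.37% and 1.36% in AOM/DSS replicates 0 and 1 and from 1.32 to 1.33% in the other 4 samples. Their pooled level was 6.11% in AOM/DSS replicate 1 and from 5.76 to 6.19% in the other 5 samples, so this replicate did not stand apart from replicate 0 there. In 20 mitochondrial regions its pooled level of 0.987% lay inside the 0.956 to 1.01% of the others, while its median of 1.16% was the highest, above 0.881 to 1.12%. In sparse regions with control levels under 10%, AOM/DSS replicate 1 was again the highest, at 5.86% against 4.51% in replicate 0 and 3.81 to 4.21% in the control and curcumin samples.

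**Figure D2:**
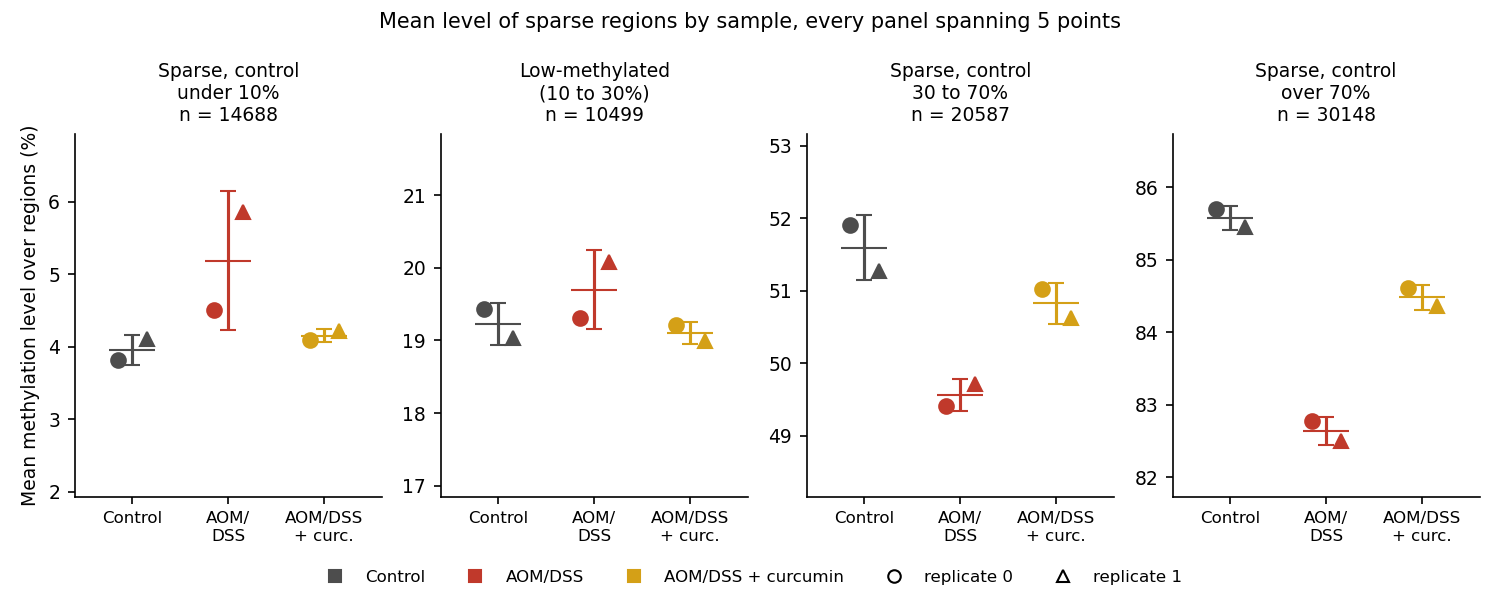
Mean methylation level (%) per sample in 4 classes of sparse regions away from dense ones, split by their control level, with points for samples and bars for the group mean ± SD (n = 2). Every panel spans 5 points: in the low-methylated class the samples lie from 18.99 to 20.1%, and in the 2 more methylated classes both AOM/DSS samples lie below all others.

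Among other sparse regions the sign went with the level. Those under 10% in control (14688 regions) also stood lower with curcumin, with a difference of -1.04 points without overlap, and the low-methylated regions minus these gave 0.439 points (two-sided exact permutation p = 0.667). Sparse regions with more methylation differed in the other direction, as did all 179922 regions together, at 0.482 points. Sparse regions with control levels of 30 to 70% (20587 regions) stood at 49.6% ± 0.217 in AOM/DSS and 50.8% ± 0.279 with curcumin (SD, n = 2), a difference of 1.26 points. Those over 70% (30148 regions) differed by 1.84 points. The curcumin difference in the low-methylated regions minus that at 30 to 70% was -1.86 points, and minus that over 70% it was -2.44 points, without overlap between the samples of the groups (two-sided exact permutation p = 0.333 in both, the smallest possible). Against regions that share the low level but are of higher density or lie near a dense region, no such gap was seen. Regions of 8 or more CpGs per 100 bases at 10 to 30% in control (1143 regions) differed by -0.66 points with curcumin, and sparse regions at 10 to 30% near a dense one (2125 regions) by -0.413 points. The gap to the low-methylated sparse regions was 0.0626 points (two-sided exact permutation p = 1) and -0.184 points (p = 0.667, exact permutation).

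The contrast was also seen beside methylated neighbours. In 2219 regions the captured neighbours within 2000 bases averaged more than 50% in control. Those neighbours stood at 71.8% and 71.3% in the control replicates, 69.2% and 68.99% in AOM/DSS, and 70.6% and 70.4% with curcumin. The 3 groups did not overlap, with AOM/DSS lowest. The low-methylated regions beside them stood at 20.1% and 19.4% in control, 19.95% and 20.7% in AOM/DSS, and 19.7% in both curcumin samples. Control and AOM/DSS overlapped here, while both curcumin samples lay below both AOM/DSS samples. The step from neighbours to region measured -51.8 ± 0.169 points in control, -48.7 ± 0.693 in AOM/DSS and -50.8 ± 0.142 with curcumin (SD, n = 2). Curcumin minus AOM/DSS, the step differed by -2.04 points and was thus deeper with curcumin (two-sided exact permutation p = 0.333, the smallest possible). Over all 6936 regions with a neighbour outside the set, whatever its level, curcumin minus AOM/DSS was 0.289 points in the neighbours and -0.97 points for the step. The controls chose both the regions and the neighbours above 50%, so the control step is a description.

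Single regions did not pass the test for curcumin against AOM/DSS. In edgeR's quasi-likelihood test over all 179922 regions with Benjamini-Hochberg adjustment, 0 of the 10499 regions had an adjusted p under 0.05, and the smallest was 0.589. Over all 179922 regions the share called was 0%. At an unadjusted p under 0.05, 418 of the 10499 regions (3.98%) were found, against 5.25% of all regions. By limma on log2 ratios 0 passed, with 313 (2.98%) at an unadjusted p under 0.05, against 5.55% of all regions.

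With a difference of at least 10 points as well, 289 regions (2.75%) had an unadjusted edgeR p under 0.05, against 2% of all regions. Of these, 96 (0.914%) were higher and 193 (1.84%) lower with curcumin, against a background of 1.29% higher and 0.706% lower. Without AOM/DSS replicate 1, 138 (1.31%) were higher and 153 (1.46%) lower, against 1.21% and 0.708% of all regions, so the 2 directions were then nearly even. The lone AOM/DSS sample is there assumed to vary like the other groups, so the counts without replicate 1 are only a description. With all samples, among the 1143 regions of 8 or more CpGs per 100 bases at the same control level, 1.75% were higher and 3.76% lower. Those regions were small, with a median of 4 CpGs and a median length of 42 bases. A lean towards lower levels was seen there too. Counting regions with no overlap between the samples and means at least 10 points apart gave 304 (2.90%) higher and 440 (4.19%) lower, against 3.86% and 2.17% of all regions. That count rests on regions of low depth: among the 4122 regions with at least 100 calls in each sample it was 104 (2.52%) in both directions together, against 1.92% of all regions at that depth. With 1 sample left out the count is not compared here, since a single sample has no spread to overlap.

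The 12 regions with the smallest unadjusted p among those without overlap, 6 per direction, are given by position in build mm9, and none of them passed (edgeR adjusted p from 0.589 to 0.905). Over the edgeR alternatives their adjusted p ran from 0.287 to 1. Lowest in p was a region of 7 CpGs on chromosome 9 from 90155399 to 90155665. It stood at 20.6% and 26.1% in AOM/DSS, 7.61% and 3.20% with curcumin, and 15% and 11.5% in control, at 92 to 140 calls. The curcumin samples were the lowest of the 6 and the AOM/DSS samples the highest. Its neighbour 267 bases away was methylated, at 69.9% in control, 57.1% in AOM/DSS and 69.3% with curcumin.

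On chromosome 16, the 7 CpGs from 10502122 to 10502335 stood at 38.8% and 35.5% in AOM/DSS. Control was at 17.3% and 17.9%, and curcumin at 13.8% and 16.8%, so only the AOM/DSS samples were high. The nearest captured region was 19417 bases away. On chromosome 19, the 6 CpGs from 36704526 to 36704738 stood at 24.6% and 24.0% in AOM/DSS, 7.95% and 9.64% with curcumin and 15.7% and 16.7% in control, 3 groups without overlap. It lay 154 bases from a nearly unmethylated neighbour at 3.65% in control. Regions of 4 CpGs on chromosome 10 from 77788952 to 77789101, of 12 CpGs on chromosome 3 from 85817830 to 85818207 and of 10 CpGs on chromosome 13 from 39918927 to 39919261 had curcumin means of 4.44%, 4.31% and 7.58%. In AOM/DSS these 3 regions had means of 16.4%, 14.8% and 18.7%. The AOM/DSS replicates of the chromosome 3 region were apart, at 10.1% and 19.5%.

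In the other direction, the 9 CpGs on chromosome 1 from 183546191 to 183546503 stood at 2.48% and 3.64% in AOM/DSS, 16.4% and 17.5% with curcumin and 6.87% and 13.6% in control. The groups did not overlap, and a neighbour 214 bases away was at 90.9% in control. On chromosome 13, the 4 CpGs from 25439440 to 25439649 stood at 4.94% and 9.46% in AOM/DSS, 23.9% and 33.3% with curcumin and 16.1% and 15% in control. Here too the AOM/DSS samples were the lowest and the curcumin samples the highest. On chromosome 14, the 3 CpGs from 6012820 to 6012929 stood at 7.81% and 16.4% in AOM/DSS, below the other 4 samples, which lay from 27.01 to 33.1%. It lay 218 bases from a neighbour of 23 CpGs at 3.96% in control and 415 bases from another at 71.96%.

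In the remaining 3 the control replicates were farther apart. The 4 CpGs on chromosome 2 from 55877842 to 55877946 stood at 4.17% ± 2.23 in AOM/DSS and 18.8% ± 1.15 with curcumin (SD, n = 2), with control replicates at 9.32% and 20%. On chromosome 11 from 75466334 to 75466436, at only 33 to 41 calls, control replicates were at 13.2% and 36.8%, AOM/DSS at 9.76% and 2.44% and curcumin at 39.4% and 31.6%. The 7 CpGs on chromosome 17 from 29532453 to 29532636 had no methylated call among 62 in AOM/DSS replicate 0, which allows a level of up to 4.84%, and 1.16% in replicate 1. Curcumin stood at 17.2% and 5.63% and control at 18.9% and 28.6%, and the neighbour 102 bases away stood at 83.3% in control, 41.2% in AOM/DSS and 63.6% with curcumin.

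**Figure D3:**
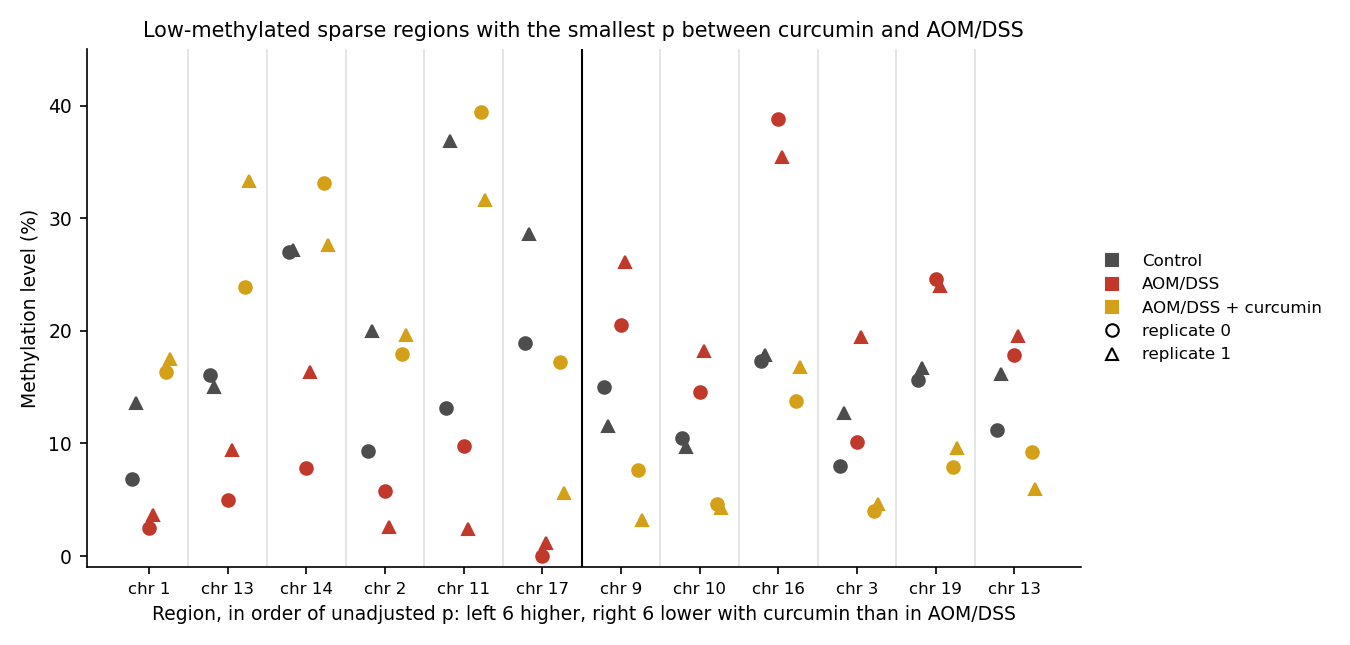
Methylation level (%) of the 12 low-methylated sparse regions with the smallest unadjusted p between curcumin and AOM/DSS, with 1 point per sample and the chromosome under each region. AOM/DSS and curcumin do not overlap in any of them, since that was required, and control lies between or beside them, as on chromosome 16 where only AOM/DSS is high.

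For the effect of AOM/DSS itself the controls chose the regions, so the values against control are a description without a test. The mean level was 19.4% and 19.03% in the control replicates and 19.3% and 20.1% in AOM/DSS. The groups overlapped, with a difference of 0.469 points between means of 19.2% ± 0.290 and 19.7% ± 0.544 (SD, n = 2). Without AOM/DSS replicate 1 the difference was 0.0842 points, and without replicate 0 it was 0.853 points. It was 0.674 points without control replicate 0 and 0.264 points without control replicate 1. Curcumin against control gave -0.128 points, also with overlap, and 0.0766 points without control replicate 0.

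Choosing regions by a level measured with error brings in regions whose control values happened to fall inside the window, and their levels in other samples then scatter back out. This regression to the mean was measured by choosing with 1 control and reading the other. Regions chosen by control replicate 0 alone (10434 regions) had a mean of 19.3% there and 19.98% in control replicate 1, which took no part in the choice. The AOM/DSS samples stood at 19.6% and 20.4% in these regions and the curcumin samples at 19.6% and 19.3%. Regions chosen by control replicate 1 alone (10701 regions) had a mean of 19.02% there and 20.3% in control replicate 0, with AOM/DSS at 19.8% and 20.5% and curcumin at 19.5% and 19.4%. In both choices the unused control lay above the control that had been used and between the AOM/DSS samples.

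**Figure D4:**
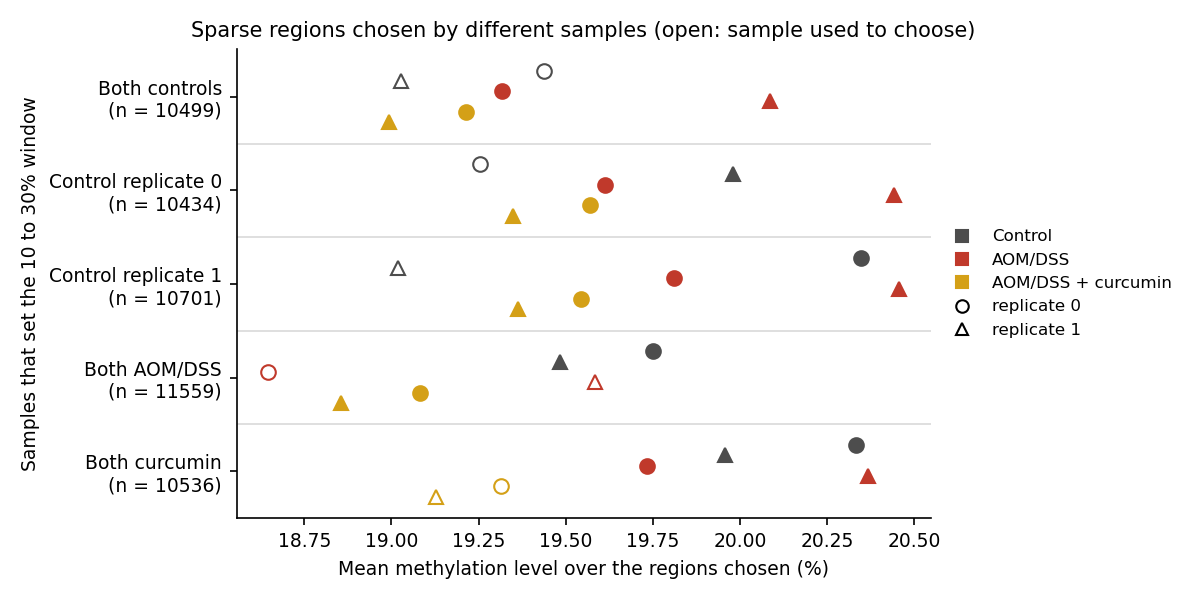
Mean methylation level (%) per sample over sparse regions placed at 10 to 30% by different samples, with open points for the samples used to choose and filled points for the others. When 1 control chose, the other control lay between the AOM/DSS samples, at 19.98% and 20.3%, and the curcumin samples lay below it.

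Against the unused control, AOM/DSS differed by 0.0495 points with regions chosen by control replicate 0 and by -0.212 points with those chosen by control replicate 1. With regions chosen by both curcumin samples (10536 regions), which take no part in this comparison, AOM/DSS minus control was -0.0956 points. A difference of the size found with both controls, 0.469 points, was thus not seen in these 3 choices, of which 1 was positive and 2 were negative. Curcumin stood below the unused control by -0.52 and -0.893 points, and by -0.648 points with the 11559 regions chosen by both AOM/DSS samples. Curcumin minus AOM/DSS was -0.569 points in regions chosen by control replicate 0 and -0.681 points in those chosen by control replicate 1. The main choice gave -0.597 points. These sets shared 8728 and 8743 regions with the main choice and were read in the same samples, so the likeness is not independent support.

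The scatter back out of the window was at least as wide in the unused control as in the treated samples. Of the regions chosen by control replicate 0, 67.4% were at 10 to 30% in control replicate 1. The share was 71.5% and 71.7% in the AOM/DSS samples and 70.4% and 69.9% in the curcumin samples. Of those chosen by control replicate 1, 65.7% were in the window in control replicate 0, 66.98% and 68.99% in AOM/DSS and 67.2% and 67.7% with curcumin. Each of the 4 treated samples thus kept more regions in the window than the unused control did, in both choices.

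**Figure D5:**
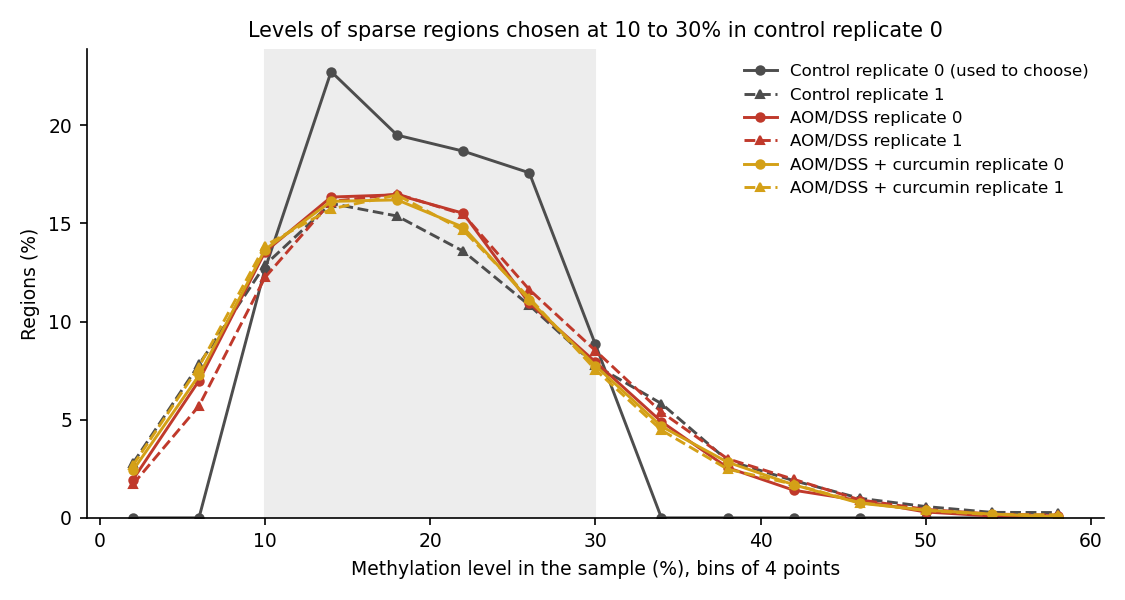
Share of regions (%) by methylation level in each sample (%, bins of 4 points) for the 10434 sparse regions chosen at 10 to 30% in control replicate 0, with the window shaded. The 5 samples not used to choose have similar curves that reach beyond both ends of the window, and 67.4% of the regions stay inside it in control replicate 1.

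For the regions chosen by both controls, the mean of the AOM/DSS samples was inside the window in 8272 (78.8%), under 10% in 1051 and over 30% in 1176. The mean of the curcumin samples was inside in 8196 (78.1%), under 10% in 1265 and over 30% in 1038. Few regions left the low range altogether: 6 exceeded 50% in AOM/DSS and 8 with curcumin. In 3583 regions (34.1%) each of the 6 samples was at 10 to 30%. The range over the 6 samples had a median of 12.5 points, and of 9.72 points in the 4122 regions with at least 100 calls in each sample.

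Within the 10499 regions, curcumin minus AOM/DSS was negative by group mean in every class of control level, CpG number and surroundings examined. All classes were read in the same samples, so the shared sign is not repeated support. Against AOM/DSS replicate 0 alone, the curcumin mean was higher with 3 CpGs (19.50 against 19.48%) and at 25 to 30% (27.1 against 26.96%). It was also higher without a neighbour that had values (19.2 against 19.1%), and lower in the other classes. Regions at 10 to 15% in control stood at 12.6% and 13.7% in AOM/DSS and at 12.3% and 12.2% with curcumin, a difference of -0.889 points between the groups. At 25 to 30% they stood at 26.96% and 27.7% in AOM/DSS and at 27.3% and 26.9% with curcumin, with overlap and a difference of -0.175 points. By CpG number, curcumin minus AOM/DSS was -0.656 points with 3 CpGs (1774 regions, samples overlapping), -0.636 with 4 to 5 (2983 regions) and -0.558 with 6 or more (5742 regions). Replicates of the AOM/DSS group were 7.09 points apart on average with 3 CpGs and 5.08 with 6 or more. By surroundings, the difference was -0.62 points where neighbours exceeded 50% and none was under 10%, and -0.862 points where a neighbour was under 10% and none exceeded 50%. It was -0.381 points in the 3205 regions without a neighbour that had values, where the 2 groups overlapped. The share of regions without overlap and at least 10 points apart was 1.64% higher and 2.93% lower with 6 or more CpGs, and 4.74% and 6.37% with 3 CpGs. Over all regions of the same CpG numbers it was 2.07% and 1.25%, and 7.3% and 3.68%.

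Between AOM/DSS and control, 508 regions (4.84%) were higher and 250 (2.38%) lower in AOM/DSS without overlap and by at least 10 points. Over all regions the shares were 1.98% and 5.08%. With curcumin against control they were 339 (3.23%) higher and 248 (2.36%) lower, against 1.94% and 3.01% of all regions. The controls chose the regions, so nothing is read from these counts.

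The regions that differed most between AOM/DSS and control, with at least 50 calls in every sample and no overlap, are given as a description. The largest difference upward was in 4 CpGs on chromosome 11 from 76797497 to 76797621, at 193 to 278 calls. The control replicates were at 21.2% and 25.1%, AOM/DSS at 46.4% and 61.5% and curcumin at 30.7% and 34.2%, and the neighbour 154 bases away was low, at 7.06% in control against 12.9% in AOM/DSS. On chromosome 10, the 4 CpGs from 115019960 to 115020075 stood at 17.9% and 25.2% in control, 48.8% and 47.5% in AOM/DSS and 34.3% and 29.6% with curcumin. In both regions the 3 groups lay apart, with curcumin between the other two. On chromosome 1 from 129260344 to 129260531, control had a mean of 15.2% ± 5.04 and AOM/DSS of 40.7% ± 1.68 (SD, n = 2), with curcumin replicates at 24.5% and 39.8%. On chromosome 5 from 128942715 to 128942982 the control replicates were far apart, at 26.8% and 8.93%, below AOM/DSS at 37.5% and 45.7%.

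The largest difference downward was in 8 CpGs on chromosome 6 from 37567637 to 37567893, at 177 to 261 calls. The control replicates were at 37.2% and 21.2%, AOM/DSS at 11.9% and 3.92% and curcumin at 20.3% and 15.6%. A neighbour 177 bases away stood at 36.97% in control against 12.6% in AOM/DSS, and another low-methylated sparse region 1161 bases away at 16.8% and 7.67%, so that 3 captured regions in a row had lower means. On chromosome 17, the 5 CpGs from 28361478 to 28361709 stood at 26.9% and 28.9% in control, 13.6% and 5.26% in AOM/DSS and 30.6% and 26.03% with curcumin. Both its neighbours were nearly unmethylated, at 0.625% and 1.47% in control. On chromosome 19, the 8 CpGs from 55940370 to 55940652 stood at 31.4% and 26.9% in control, 10.4% and 11.6% in AOM/DSS and 24.2% and 34.6% with curcumin. In these last 2 regions curcumin overlapped control and lay above AOM/DSS. On chromosome 3, the 9 CpGs from 94722135 to 94722518 stood at 25% and 34.02% in control, 8.93% and 14.9% in AOM/DSS and 14.2% and 14.8% with curcumin, here near AOM/DSS.

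Other regions hardly varied. Among those with at least 100 calls in every sample, the smallest range belonged to 14 CpGs on chromosome 12 from 106265758 to 106266138. At 993 to 1271 calls they stood at 19.5% and 18.7% in control, 18.98% and 19.9% in AOM/DSS and 19.8% and 18.4% with curcumin, a range of 1.47 points. On one side, 1050 bases away, a methylated neighbour stood at 86.3% in control, 78.96% in AOM/DSS and 88.1% with curcumin. On the other, 77 bases away, lay another low-methylated sparse region at 10.1%, 12.6% and 12.6%. Ranges under 2 points were also found on chromosome 1 from 60099124 to 60099443 (9.73 to 11.3%), chromosome 3 from 58589798 to 58590145 (16.1 to 17.9%) and chromosome 6 from 114461975 to 114462201 (20.9 to 22.8%).

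The most CpGs in a region were 19, which 13 regions held (chromosome 18 left out), and the first 4 of them by position are described. On chromosome 4 from 133951611 to 133952111 the 6 samples lay from 22.9 to 28.02%, and those of chromosome 5, 113763427 to 113763912, from 17.5 to 24.8%. On chromosome 3 from 104592081 to 104592560 the control replicates were at 24.1% and 8.66%, with the other 4 samples between them. On chromosome 2 from 32452425 to 32452905, the control samples had 25.1% and 31.3% and the AOM/DSS samples 25.6% and 26.3%, while curcumin was at 6.86% and 19.8% (edgeR adjusted p = 0.928 for curcumin against AOM/DSS).

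The longest run held 6 low-methylated sparse regions with 27 CpGs over 4339 bases on chromosome 2 from 115895418 to 115899756. Their mean was 21.2% and 22.8% in control, 19.03% and 26.5% in AOM/DSS and 24.2% and 22.8% with curcumin, so the AOM/DSS replicates enclosed the other 4 samples. The next held 5 regions with 30 CpGs over 3655 bases on chromosome 5 from 148126143 to 148129797. Here the control replicates stood at 8.78% and 24.8% and enclosed the other 4 samples, which lay from 12.5 to 19.3%. The spread between the control replicates was thus larger than any difference between groups in this run.

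The window and the density limit have no natural gap at their ends. Just inside the lower end, control means were 10% on chromosome 1 from 125871207 to 125871405 (replicates at 5.71% and 14.3%) and from 164590425 to 164590569 (10.7% and 9.33%). Just outside it, regions at 72893902 to 72894312 of chromosome 2 (12.3% and 7.73%) and at 66901478 to 66901617 of chromosome 14 (14.8% and 5.21%) had means of 9.998% and 9.995%. At the upper end, regions at 162124875 to 162124991 of chromosome 1 (28.6% and 31.4%) and at 39081535 to 39081654 of chromosome 6 (26.7% and 33.3%) were the last inside. Those at 73528774 to 73528899 of chromosome 12 (31.9% and 28.1%) and at 43625444 to 43625677 of chromosome 4 (35.9% and 24.1%) were the first outside. By density, regions at 29326079 to 29326554 of chromosome 17 and at 131605183 to 131605608 of chromosome 3, both at 3.99 CpGs per 100 bases, were inside. Those on chromosome 1 from 42318697 to 42319021 and from 42770779 to 42770953, both at 4, were outside.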

How the data were processed

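Per the labels' protocols, DNA was captured with Agilent SureSelectXT Mouse Methyl-Seq and bisulfite sequenced. The submitters' processing notes name Bismark 0.15.0, ChIPseeker 1.10.3, R 3.4.0 and build mm9. Not given in the sources used here are the drawing of regions and the handling of duplicates. The authors deposited counts per region (CpGs, calls and methylated calls), with at least 20 calls per value. Total calls per sample ran from 24682973 to 30727568.

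Distances are gaps between the nearest ends of regions, except in the profile by distance, which uses centres. Coordinates are those of the files and may be off by 1 base, since their first position is not stated. The gene table belongs to another build, so genes and sequences of the regions were not analysed here.

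Curcumin against AOM/DSS was tested with edgeR 4.0.16 in R 4.3.3 (quasi-likelihood, a coverage coefficient per sample, a methylation coefficient per group, all 6 samples, no low-count filter beyond the authors' limit) on all 179922 regions with values in every sample. Called regions had an adjusted p under 0.05 and means at least 10 points apart. Means were compared with exact permutation tests. Alternatives were limma 3.58.1 (pseudocount 0.5), Fisher's exact test, other minimum calls, limits and choosing samples, a replicate block and leaving out samples. Averages used Python 3.11.15, numpy 2.4.6, pandas 2.3.3 and scipy 1.17.1.

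Regions were named by rule: the smallest p for curcumin against AOM/DSS, the widest AOM/DSS difference from control, the most CpGs, the smallest range, the longest runs and the ends of the window and density limit, without chromosome 18. The kinds of neighbours, the dense and mitochondrial medians and the single-sample histogram were added after the values were seen. The regions and tests were chosen with earlier results of these data known.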

Additional observations from a re-analysis of the deposited data

How the results depend on the processing

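No fitted edgeR or limma alternative called a low-methylated sparse region between curcumin and AOM/DSS, while Fisher's exact test, run on calls summed per group and thus blind to the spread of replicates, called 143 of 10499, against 1795 of all 179922 regions. The count at an unadjusted p under 0.05 and 10 points, 289, was 81 with at least 100 calls (1.97%, against 1.07% of all regions at that depth). It was 40 at 20 points (0.381%, against 0.392%) and 625 by Fisher's test (5.95%, against 4.84%). With density under 3 it was 139 (2.55% of the regions left). At control levels of 10 to 20% and 20 to 30% it was 151 (2.58%) and 138 (2.97%). These shares stand against 2% of all 179922 regions, of any density and level. With 1 sample left out, a lone sample is assumed to vary like the other groups. That count is therefore given above only without AOM/DSS replicate 1, as a description. The count without overlap, 744, was 366 (4.68%, against 3.76%) with at least 50 calls and 104 (2.52%, against 1.92%) with at least 100. With density under 3 it was 399 (7.31%). At 10 to 20% and 20 to 30% it was 315 (5.38%) and 429 (9.24%). Over all 179922 regions, of any density and level, 3.86% were higher and 2.17% lower. The count without overlap was 1311 to 1484 with 1 sample left out. A single sample has no spread to overlap, so the rule is then easier to meet. These counts are therefore not comparable with 744, and nothing is read from them.

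Curcumin minus AOM/DSS over the regions, -0.597 points, was negative in every alternative run, from -0.981 to -0.212 points with 1 sample left out, and -0.51 points by pooled calls. AOM/DSS minus control, 0.469 points, turned to -0.212 points with regions chosen by control replicate 1 and read against replicate 0, and to -0.0956 points with regions chosen by curcumin. With 1 sample left out it was 0.0842 to 0.853 points. Curcumin minus control, -0.128 points, was -0.52 and -0.893 points against the control not used to choose and -0.648 points with regions chosen by AOM/DSS. It ran from -0.333 to 0.0766 points with 1 sample left out. Beyond the choice of regions, the causes were not tested.

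With the replicate number as a replicate block, edgeR called 0 of the 10499 regions, with 299 (2.85%, against 2.05% of all regions) at an unadjusted p under 0.05 and 10 points, and the mean differences were the same by construction. Deviations of same-numbered samples correlated at 0.00746 to 0.0774 over these regions. Each value carries counting error, so these correlations cannot tell whether the numbers pair the samples. At the median of 103 calls, a level of 20.4% has a 95% Wilson interval of 13.7 to 29.2%, so a difference of a few points in 1 region of that depth lies within counting error.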

Other observations

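Low-methylated sparse regions that lay next to each other, 770 consecutive pairs with gaps of up to 2000 bases, varied together only weakly. The difference between the control replicates had r = 0.243 (Spearman 0.183) between the regions of a pair, curcumin minus AOM/DSS had r = 0.0961 (0.11) and AOM/DSS minus control had r = 0.101 (0.0999). The control level itself had r = -0.0324 within the window. These are correlations across pairs of regions in the same 6 libraries, with counting error in each value, and are given as a description. In 238 regions (2.27%) the range over the 6 samples exceeded 30 points, but in only 12 of the 4122 regions with at least 100 calls in every sample.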
